A study of Mus musculus with 2 samples.

Results

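The vomeronasal type 2 receptor genes (Vmn2r) are compared here with the other protein-coding genes of the mouse for the CTCF peaks around them in newborn heart. They were taken as every protein-coding gene of GENCODE M21 on chromosomes 1 to 19 whose name begins with Vmn2r, which gave 121 of 20807 protein-coding genes. Chromosome 7 holds 51 of them, chromosome 17 holds 32, chromosome 5 holds 11, chromosome 6 holds 9, chromosome 10 holds 8, chromosome 3 holds 7, chromosome 14 holds 2 and chromosome 4 holds 1. Of these, 2 (Vmn2r-ps159 and Vmn2r-ps130) carry names of pseudogenes but are annotated as protein-coding. Genes whose records lay no more than 500 kb apart were chained, which made 19 clusters, 13 of them with 3 or more genes and 5 with a single gene.

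The data are peak lists of CTCF chromatin immunoprecipitation and sequencing (ChIP-seq) from whole heart of B6NCrl mice at postnatal day 0, with the sex not collected and no treatment named in the labels. The 2 libraries form 1 group and carry the same tissue sample and donor in the labels, so their spread may be only technical, and no contrast between conditions exists. The optimal list, made by the authors with the irreproducible discovery rate (IDR), holds 44533 peaks. Each relaxed list, of either library or of both pooled, holds 300000. The signal of a peak is the authors' deposited value, which has no unit and ranks peaks within a list. Read depth is not given in the lists, so the counting error of a signal is unknown. Peak lists hold no expression, so the tissue label was not checked against marker genes.

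The V2R proteins encoded by these genes are family C receptors coupled to G proteins, with a large domain outside the cell that binds peptide and protein pheromones. They are made in sensory neurons of the basal layer of the vomeronasal organ, which use the G protein subunit Gnao1 and the channel Trpc2, and most of those neurons express few V2R genes. CTCF is a zinc finger protein that binds a directional core sequence, halts cohesin and so marks the ends of many chromatin loops. The heart is not a tissue in which these receptors are known to act, so the peaks describe CTCF at the clusters in a tissue outside the olfactory system.

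Some of the bound sites in and beside the clusters are copies of one another, and their sequences are shown because the copies differ in whether a peak was called. Each line gives the core of 14 bases in capitals and 8 bases to either side in lower case, read 5′ to 3′ on the strand of the core, from RefSeq's copy of GRCm38 (mm10). A core that lies in no protein-coding Vmn2r gene is named by the one with the nearest 5′ end, which can be far away. On chromosome 5, 3 summits in a row lay on such copies: beside Vmn2r8 in an intron of Tmed11, in an exon of Vmn2r9 outside its coding part, and in an exon of the gene record Gm10417.
Nearest to Vmn2r8, peak called, chr5:108790579-108790592, plus strand: ctgtttggCCAGCAGATGTCAGaagggaag
Vmn2r9 exon, peak called, chr5:108836323-108836336, plus strand: ctgtttggCCAGCAGATGTCAGaagggaaa
Gm10417 exon, peak called, chr5:108866953-108866966, plus strand: ctgtgtggCCAGCAGATGTCAGaagagagg
Nearest to Vmn2r10, no optimal peak, chr5:109032767-109032780, plus strand: atgtttggCCAGCAGATGTCAGaagggaag
Nearest to Vmn2r11, no optimal peak, chr5:109072220-109072233, plus strand: ctgtgtggCCAGCAGATGTCAGaagggagg
Nearest to Vmn2r12, no optimal peak, chr5:109139723-109139736, plus strand: ctctgtggCCAGCAGATGTCAGaagggaag

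The copies named by a nearest gene lay 18.26 kb from the 5′ end of Vmn2r8, 12.66 kb from that of Vmn2r11 and 41.78 kb from that of Vmn2r12. The pooled signals at the 3 called copies were 32.45 beside Vmn2r8, 37.09 in Vmn2r9 and 35.96 in Gm10417. In replicates 1 and 2 the Vmn2r8 site had 17.07 and 14.41, the Vmn2r9 site 21.41 and 15.05, and the Gm10417 site 19.24 and 16.12. Replicate 1 was the higher at all 3. Searching the clusters and 100 kb to either side for the Gm10417 site, with 20 bases on either side of its core (54 bases in all) and at most 10 mismatches, found 8 places including itself. An optimal peak stood on 3 of these, and a relaxed pooled peak on 4, the added one being the copy 26.25 kb from the 5′ end of Vmn2r10. Among the strongest peaks of replicate 2 alone a summit 26.23 kb from Vmn2r10 was included, while in the optimal list Vmn2r10 is 139.6 kb from the nearest. The copy nearest to Vmn2r11 differed from the called Gm10417 site at 2 of the 54 bases and had neither kind of peak. The same 14 letters occurred 5 times inside the clusters, each time in a word of 32 bases that occurs once in the genome, and 2 of the 5 were in an optimal peak.

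A different set of copies lies on chromosomes 6, 7, 10 and 17, and is shown because its called members belong to clusters on chromosomes 6, 7 and 10.
Nearest to Vmn2r25, peak called, chr6:123931162-123931175, plus strand: atgtgccgCCACTAGATGGTGCtaaacctc
Nearest to Vmn2r73, peak called, chr7:85818293-85818306, plus strand: atgtgtcgCCACTAGATGGTGTtaaacctc
Nearest to Vmn2r82, peak called, chr10:79322535-79322548, minus strand: atgtgccaCCACTAGATAGTGCtaaacctc
Nearest to Vmn2r82, no peak called, chr10:79314548-79314561, minus strand: atgtgccaCCACTAGATAGTGCtaaacctc
Nearest to Vmn2r69, no peak called, chr7:85433790-85433803, minus strand: atgtgccgCCACTAGATAGTGCtaaacctc
Nearest to Vmn2r104, no peak called, chr17:20097521-20097534, plus strand: atgtgccgCCACTAGATGGTACtaaacctc

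The distances to the nearest Vmn2r 5′ end were 77.71 kb for Vmn2r25, 57.97 kb for Vmn2r73, 17.88 kb for Vmn2r69 and 49.19 kb for Vmn2r104. From Vmn2r82 the called copy lay 33.98 kb away and the other copy 41.97 kb. The signal was 40.84 at the chromosome 6 site (22.83 and 16.77 in replicates 1 and 2), 17.51 at the chromosome 7 site (11.3 and 6.414) and 38.56 at the chromosome 10 site (24.48 and 10.21). Replicate 1 had the higher value at each of the 3, and the chromosome 7 site was not among the strongest peaks of replicate 2 alone, where Vmn2r73 was 335.3 kb from a summit. Of 7 places with at most 10 mismatches to the chromosome 6 site, 3 had an optimal peak and 4 a relaxed one. The place not printed, in an exon of Zfp975 on chromosome 7, differed from that site at 1 of the 54 bases. It had a relaxed peak but no optimal one. The copies on chromosome 10 had the same 54 bases, and a peak was called on only 1 of them. The word of 32 bases around the core occurs 25 times in the genome at the chromosome 6 site, 6 times at the called chromosome 10 site and once at the chromosome 7 site. How reads matching several places were treated is not given in the sources used here, and its part in which copy carries a peak was not tested.

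CTCF summits were nearly absent from the surroundings of Vmn2r 5′ ends. Within 10 kb of the 5′ end, 1 of 121 Vmn2r genes had a summit of the optimal list (0.826%, exact 95% interval 0.0209 to 4.52%), against 52.2% of the 20686 other protein-coding genes in the same list. Within 100 kb, 34 of 121 had one (28.1%, interval 20.3 to 37.0%), against 90.5% of the others. The intervals cover counting error only and take genes as independent, although neighbours share summits: the 121 genes had 37 distinct nearest summits. Widening the window to 200 kb took in 60 Vmn2r genes (49.6%) and 94.2% of the others. At 1000 kb 100 Vmn2r genes (82.6%) and 99.2% of the others had a summit. The median distance to the nearest summit was 206.8 kb for Vmn2r genes (quartiles 83.95 and 572.2 kb) and 8.864 kb for the others.

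The strongest peaks of either library alone, cut to the length of the optimal list, gave nearly the same shares. Within 10 kb each library placed a summit at 1 Vmn2r gene. Within 100 kb replicate 1 gave 33 genes and replicate 2 gave 36, or 28.5% ± 1.753 (SD, n = 2), against 90.6% ± 0.123 for the other genes. The gap between members and other genes was larger than this spread at both windows. With 1 group of 2 libraries no test across samples was possible.

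**Figure D1:**
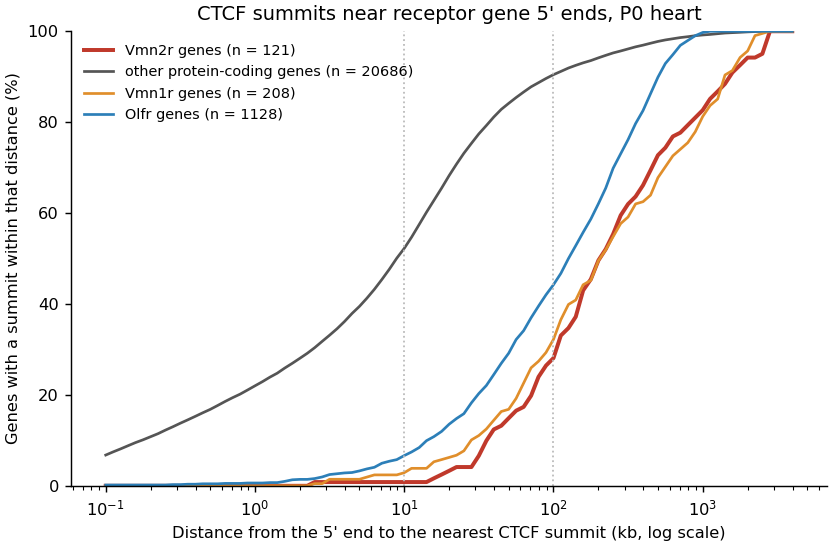
Cumulative share of genes (%) with an optimal CTCF summit within a given distance of the 5′ end (kb, log scale) for Vmn2r, Vmn1r, Olfr and all other protein-coding genes, with dotted lines at 10 and 100 kb. The Vmn2r line stays at 0.826% at 10 kb and reaches 28.1% at 100 kb, while the line of the other protein-coding genes is at 52.2% and 90.5%.

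The other large chemoreceptor families of the mouse also lay far from summits. Of 208 Vmn1r genes, which encode the V1R receptors of apical vomeronasal neurons, 6 had a summit within 10 kb (2.89%) and 67 within 100 kb (32.2%), with a median distance of 206.4 kb. Of 1128 Olfr genes, which encode the odorant receptors of the main olfactory epithelium, 75 had a summit within 10 kb (6.65%) and 499 within 100 kb (44.2%), with a median of 125.9 kb. The exact 95% interval of the Vmn2r share at 100 kb (20.3 to 37.0%) overlapped that of Vmn1r (25.9 to 39.0%) and lay below that of Olfr (41.3 to 47.2%). Both families are among the other protein-coding genes counted above.

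Vmn2r7 was the single member with a summit within 10 kb. It belongs to the Vmn2r1 to Vmn2r7 group on chromosome 3, a subfamily known for being expressed broadly and together with other V2R genes rather than one per neuron. Its record is 159.7 kb long, the nearest summit lay in an intron 2.303 kb past the 5′ end, and the signal there was 119.7 (68.65 in replicate 1 and 50.26 in replicate 2). A second summit in the record of Vmn2r7, 53.66 kb from the 5′ end, had a signal of 143.3 (80.62 and 60.79). Another lay 8.094 kb upstream, outside the cluster, with 19.63 (12.53 and 5.887). Replicate 1 was higher than replicate 2 at all 3, and the first 2 were above the list's median of 60.83.

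The other 6 genes of the subfamily ranged from 17.29 kb to 108.4 kb from a summit. The distances were 41.63 kb for Vmn2r1, 102.0 kb for Vmn2r2, 17.29 kb for Vmn2r3, 108.4 kb for Vmn2r4, 77.97 kb for Vmn2r5 and 21.98 kb for Vmn2r6. The Vmn2r1 to Vmn2r7 cluster had 4 summits in 763.2 kb, or 5.241 per Mb against 14.07 per Mb over chromosome 3, the highest density relative to its chromosome (0.3725) among the 13 clusters of 3 or more genes. Of these 4 summits, the one nearest to Vmn2r6 lay on a core with no mismatch, which is printed below with the other cores of that kind that were in a peak.

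Members known from work on their ligands or neurons lay within the middle or lower range of the family. Vmn2r116, the receptor for the male tear peptide ESP1, was 175.4 kb from the nearest summit. Vmn2r26, a receptor for peptides that bind MHC class I, was 93.42 kb away, and Vmn2r83 was 34.3 kb away. Vmn2r83 was below the lower quartile of the family (83.95 kb), and the other two lay between it and the median.

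The 5 Vmn2r genes farthest from any summit all belong to the Vmn2r46 to Vmn2r52 cluster on chromosome 7. The distances were 2736 kb for Vmn2r50, 2693 kb for Vmn2r49, 2684 kb for Vmn2r51, 2654 kb for Vmn2r48 and 2613 kb for Vmn2r52. The conservative list and that of replicate 1 gave the same distances. Among the strongest peaks of replicate 2 alone, however, a peak of signal 8.284 at chr7:10729620 lay 553.0 kb from Vmn2r52, with no peak of replicate 1 within 100 bp. With that list the distance of Vmn2r50 was 676.3 kb and that of Vmn2r48 776.0 kb.

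**Figure D2:**
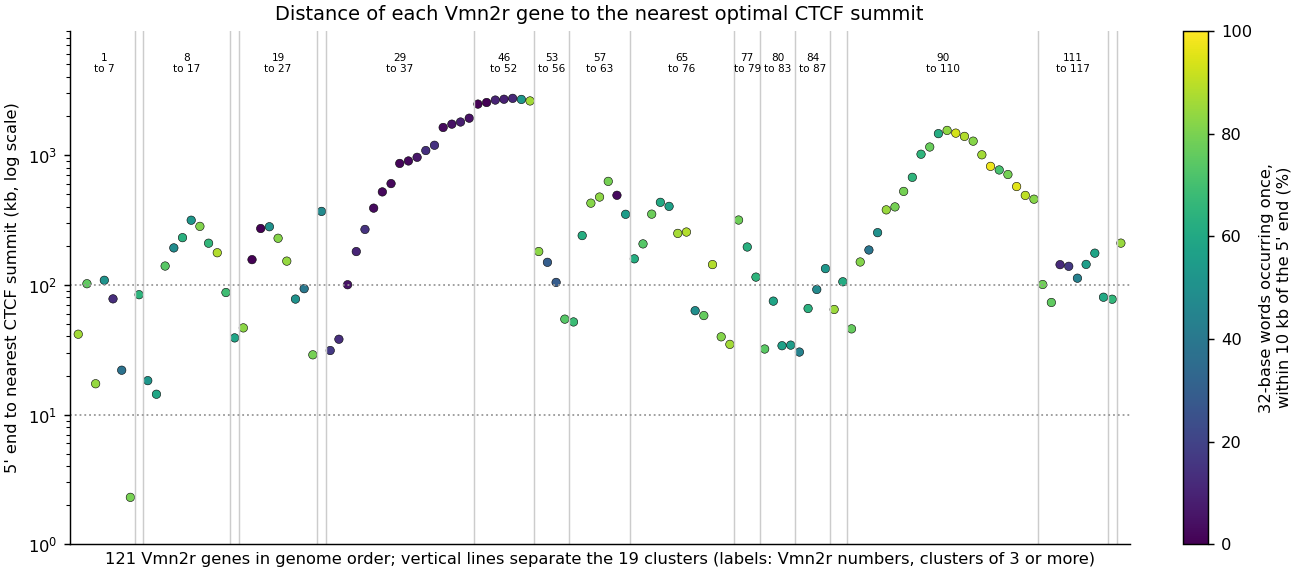
Distance (kb, log scale) from the 5′ end of each of the 121 Vmn2r genes, in genome order, to the nearest optimal CTCF summit, coloured by the share (%) of 32-base words within 10 kb of the 5′ end that occur once in the genome. Only Vmn2r7 lies below 10 kb, and the arcs over Vmn2r29 to Vmn2r52 and over Vmn2r90 to Vmn2r110 rise above 1000 kb.

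Inside the clusters summits were sparse. The clusters cover 12.53 Mb and held 25 optimal summits, or 1.995 per Mb, against 17.69 per Mb in the rest of chromosomes 1 to 19, a ratio of 0.113. The libraries' own strongest peaks placed 25 (replicate 1) and 26 (replicate 2) summits there, 2.034 per Mb ± 0.0564 (SD, n = 2). No summit fell in 10 of the 19 clusters, among them 4 of the 13 with 3 or more genes: Vmn2r46 to Vmn2r52, Vmn2r53 to Vmn2r56, Vmn2r77 to Vmn2r79 and Vmn2r84 to Vmn2r87. At the density of their chromosomes these 4 would hold 2.009 to 8.461 summits each. The empty clusters of 1 or 2 genes are short and would hold only 0.1529 to 0.8666 each. Relaxed pooled peaks were also sparse, with 18.51 per Mb inside and 119.9 per Mb outside, a ratio of 0.154.

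The peaks that were called inside had a median signal of 40.22 (range 17.51 to 198.0), against 61.42 for the other peaks of chromosomes 1 to 19, and 9 of the 25 were above that value. A summit lay inside the record of 3 Vmn2r genes: Vmn2r7 with 2, Vmn2r9 with 1 and Vmn2r76 with 1, while 47.6% of the other genes had one in their record. The median record was 27.15 kb long for Vmn2r genes and 17.52 kb for the others. Relaxed peaks were present within 10 kb of 28 Vmn2r 5′ ends (23.1%) against 88.6% of the others. In the 27 of these without an optimal summit, the strongest such peak had a signal of 5.307 to 10.33, below the lowest decile of the optimal list (17.62).

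Of the 25 summits inside the clusters, 12 had the 5′ end of a Vmn2r gene as the nearest of a protein-coding gene, and 13 had that of another gene. Other protein-coding genes had 29 5′ ends inside the clusters, and 10 of these (34.5%) had a summit within 10 kb, with a median distance of 67.2 kb, against 52.2% and 8.864 kb for all protein-coding genes outside the family. One of the 10 is Tmed11, whose nearest summit (4.784 kb) lies just outside the cluster, beyond the end at Vmn2r8. The cluster from Vmn2r29 to Vmn2r37 is 1992 kb long with 17 receptor genes, and its 3 summits all lay at Gm45844 and Clcn4, which encodes a chloride/proton exchanger. They had signals of 143.9 (0.217 kb from the 5′ end of Gm45844), 70.55 (5.128 kb from that of Clcn4) and 105.4 (1.318 kb from it). The summit nearest to Clcn4 was the nearest one for 20 Vmn2r genes, the largest number sharing a summit.

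In the largest cluster, from Vmn2r90 to Vmn2r110 on chromosome 17, 22 Vmn2r genes extend over 2893 kb with 7 summits. All 7 lay in the interval between Vmn2r90 and Vmn2r124, which also holds Spaca6, a sperm gene needed for fertilization, Has1, a hyaluronan synthase, and the formyl peptide receptor genes Fpr1, Fpr2 and Fpr3. The strongest had a signal of 198.0 (112.4 and 83.37 in replicates 1 and 2), 62.95 kb from Vmn2r90, and the one in a coding exon of Spaca6 had 138.6 (75.64 and 61.38). The weakest, of 20.06, was absent from the conservative list. No summit fell among the other 20 genes of the cluster after Vmn2r124.

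The remaining summits inside clusters were fewer. The Vmn2r57 to Vmn2r63 cluster had 2, at AW146154 (27.2) and Zfp788 (113.4), and the Vmn2r65 to Vmn2r76 cluster had 2 weak ones (17.51 and 17.61). The first of these clusters had 3 summits in the conservative list and in that of replicate 1 alone, and 4 in that of replicate 2. The second had 1 in the list of either library alone. The Vmn2r111 to Vmn2r117 cluster had 3 (23.37, 30.74 and 30.78), the last of them 6.79 kb from Zfp40. Vmn2r8 to Vmn2r17 had 2, and Vmn2r19 to Vmn2r27 and Vmn2r80 to Vmn2r83 had 1 each, all on the copied sites printed above.

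**Figure D3:**
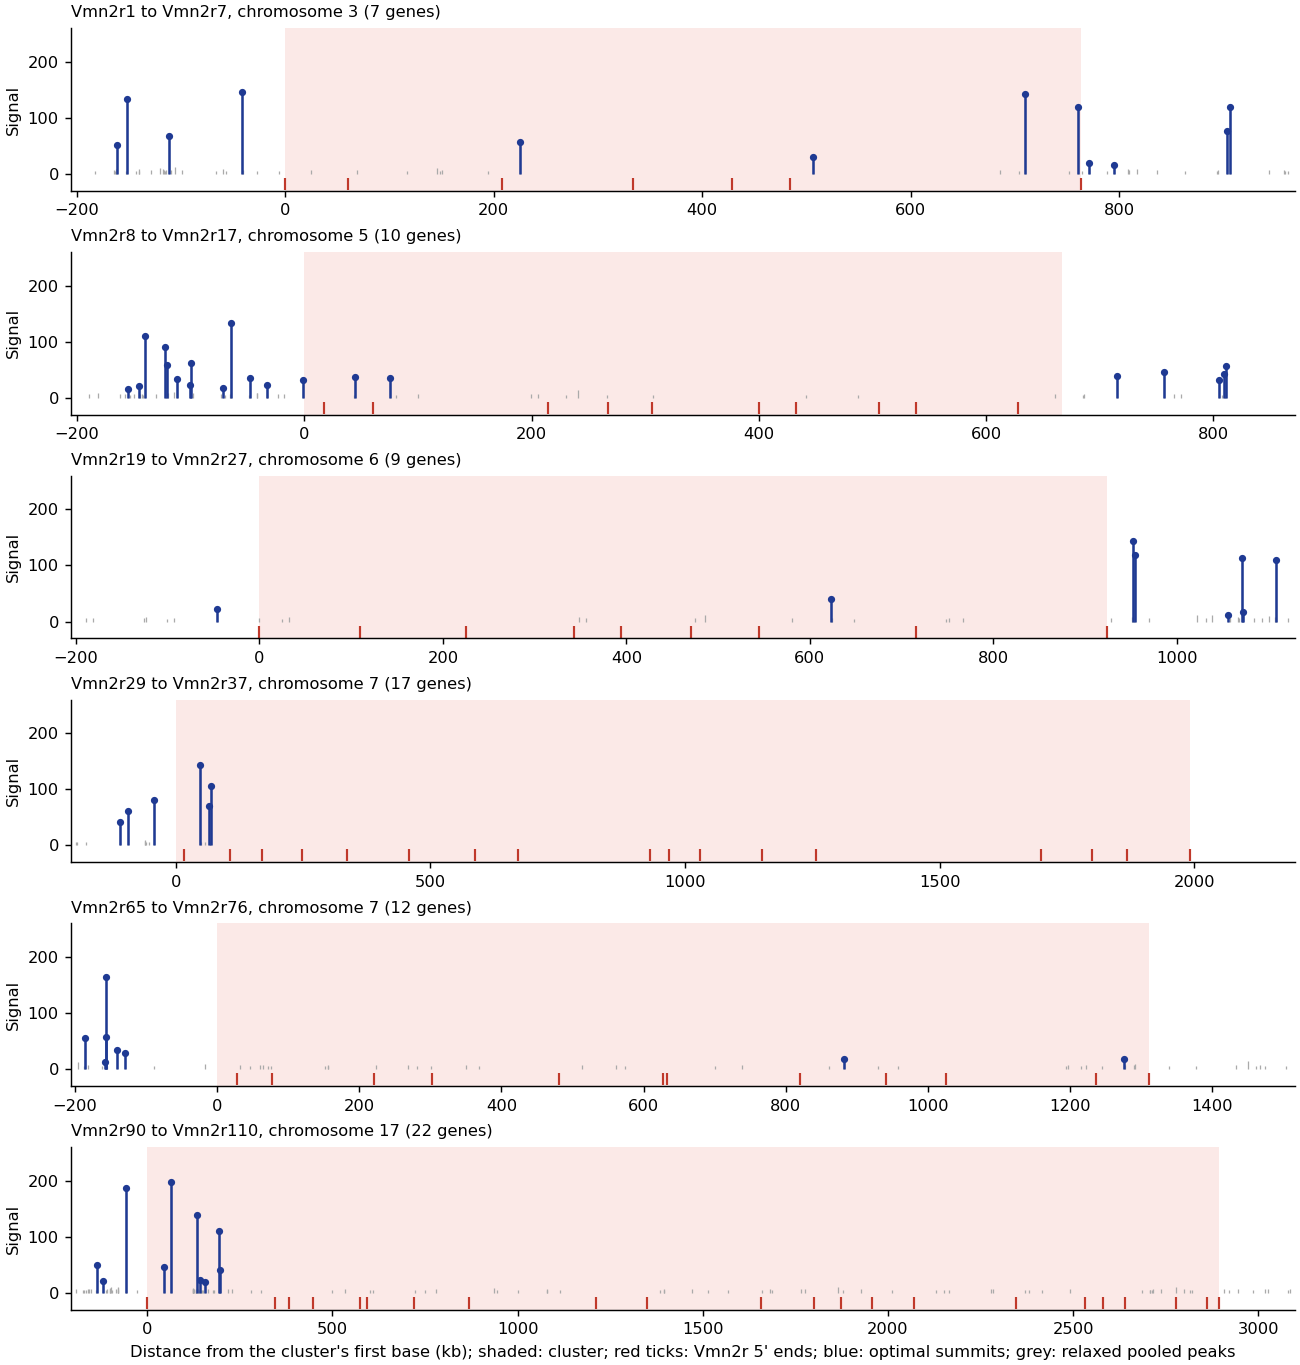
Deposited signal of optimal CTCF summits (blue) and relaxed pooled peaks (grey) along 6 Vmn2r clusters and 200 kb to either side, by distance from the cluster's first base (kb), with the 5′ ends of Vmn2r genes as red ticks and the cluster shaded. In the clusters from Vmn2r29 to Vmn2r37 and from Vmn2r90 to Vmn2r110 the 3 and 7 summits crowd at the left end, and the rest of the cluster has none.

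The longest stretch without an optimal summit on chromosomes 1 to 19 runs over Vmn2r genes. Part of it, between the records of Vmn2r52 (to chr7:10176573) and Vmn2r53 (from chr7:12562851), lies in no Vmn2r cluster. Between chr7:7299533 and chr7:12789413 there were 5490 kb without a summit, the first in rank of 43361 intervals between neighbouring summits, and 27 Vmn2r genes from Vmn2r30 to Vmn2r56 start in it. The list of replicate 2 alone splits this stretch, which then measures 3430 kb around Vmn2r50, while the list of replicate 1 and the conservative list keep 5490 kb. Of its 32-base words 30.1% occur once in the genome, 0.911% of its bases are unknown, and 49 relaxed pooled peaks lie inside. In the chromosome 17 stretch from chr17:17899425 to chr17:21053495, 3154 kb long and eighth in rank, 21 Vmn2r genes from Vmn2r124 to Vmn2r110 start. There 74.4% of the words occur once, and 77 relaxed peaks lie inside.

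Together these 2 stretches hold 48 of the 121 genes. Over all intervals that hold a Vmn2r 5′ end (27), the median length was 359.9 kb, against 20.45 kb for all 43361 intervals. A long interval is more likely to hold the 5′ end of any gene, so these medians are not like for like. Intervals that hold the 5′ ends of other genes were not measured. An interval over 1000 kb held 63 of the 121 genes, in 5 of the 167 such intervals. The share of other protein-coding genes in such intervals was not computed. Within 500 kb of the 5′ end, 72.7% of Vmn2r genes and 97.75% of the other protein-coding genes had a summit. Vmn2r-ps159 on chromosome 4 and Vmn2r84 to Vmn2r87 on chromosome 10 lay beyond the outermost optimal summit of their chromosomes. For Vmn2r84 to Vmn2r87 this held in the optimal list only, since the conservative list and those of either library alone each have 1 summit beyond Vmn2r87.

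Sequence shared between copies limits where reads can be placed, and it differed strongly between the clusters and the rest. Inside the clusters 52.98% of sampled 32-base words occur once in the genome, against 84.6% over chromosomes 1 to 19. Repeat-masked bases made up 52.6% against 33.5%, and GC content was 38.2% against 41.9%. The Vmn2r29 to Vmn2r37 cluster had the lowest share of single words (7.86%), and the Vmn2r90 to Vmn2r110 cluster the highest of those with 3 or more genes (74.9%).

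The distance to summits was large also where most of the sequence within 10 kb of the 5′ end is single. Of the 29 Vmn2r genes with at least 80% of words occurring once within 10 kb of the 5′ end, none had a summit within 10 kb, which allows a share of up to 10.34%, against 58.1% of 17585 other genes of that kind. Within 100 kb there were 6 of 29, against 95.7%. The median distance of these 29 was 255.2 kb, against 6.897 kb for the others. Sequence beyond 10 kb was not filtered, and the share within 100 kb and the median depend on it. Vmn2r52, with 86.0% single words near its 5′ end, lay 2613 kb from a summit in a stretch with 30.1% single words. Several of the 29 share the chromosome 17 stretch from Vmn2r124 to Vmn2r110, so they are not independent. Among genes with less than 50% single words, 0 of 39 Vmn2r genes had a summit within 10 kb, and 4.89% of 1043 others had one. The 0 of 39 allows up to 7.69% by the same approximate limit. In that group a difference at 10 kb was not detectable with this number of genes. Between 50 and 80%, 1 of 53 Vmn2r genes had a summit within 10 kb, against 25.8% of 2058 others.

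**Figure D4:**
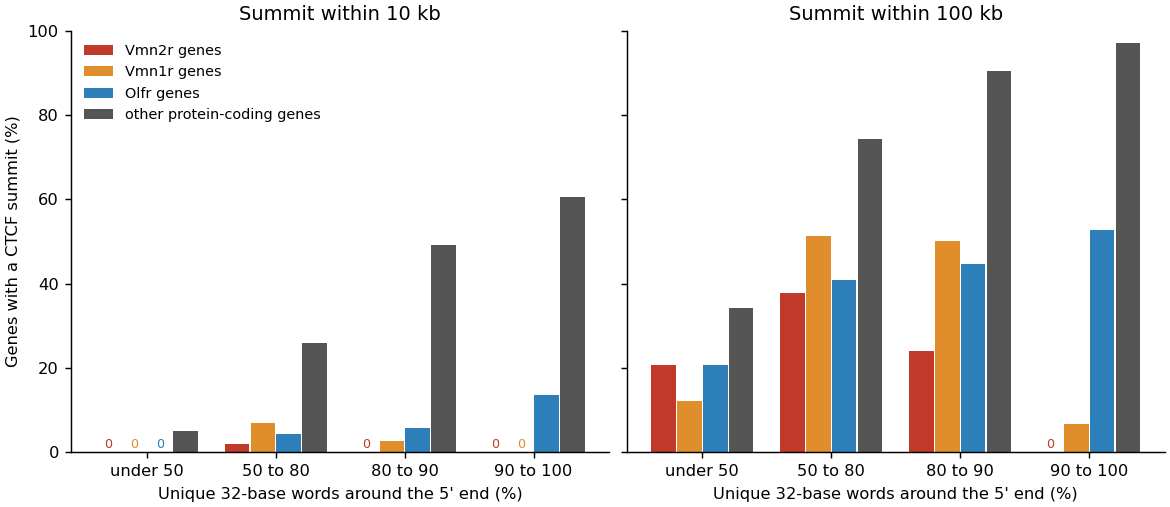
Share of genes (%) with an optimal CTCF summit within 10 kb (left) and 100 kb (right) of the 5′ end, by the share of 32-base words around it that occur once, for Vmn2r, Vmn1r, Olfr and all other protein-coding genes (a 0 marks an empty bar). For the other protein-coding genes the share within 10 kb climbs from 4.89% to 60.7%, and for Vmn2r genes it is 0 in each class but that from 50 to 80%.

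Matches to the CTCF core consensus inside the clusters were less often in a peak than matches elsewhere, and their density depended on how they were counted. With at most 1 mismatch on either strand there were 314 matches inside, 25.05 per Mb, against 24.84 per Mb elsewhere. That count includes 166 copies of a single run of 14 letters, described below, without which the densities were 11.81 and 21.85 per Mb. Matches with no mismatch numbered 0.8776 per Mb inside and 2.576 elsewhere, and those with at most 2 mismatches 146.0 and 212.4. Of the 314 matches, 11 lay within 50 bp of a summit (3.50%), against 30.7% of the matches elsewhere. Restricted to matches whose surrounding word of 32 bases occurs once, 9 of 80 were in a peak (11.25%), against 37.2%, and the densities of such matches were 6.382 and 20.17 per Mb. With no mismatch, 3 of 11 were in a peak (27.3%), against 80.8%. Among the perfect matches with a single word it was 3 of 5 (60.0%, exact 95% interval 14.66 to 94.73%), and the interval includes the 84.18% found elsewhere.

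Of the matches inside the clusters, 166 of 314 (52.9%) had the same 14 letters, TCACTAGAGGGCAC. All 166 were in repeat-masked sequence, and none was in a peak, which allows a share of up to 1.81% by the same approximate limit. Outside the clusters the same letters occurred 7323 times and were in a peak 20 times (0.273%). Without them 148 matches remained, of which 11 were in a peak (7.43%), against 34.9% elsewhere. With and without these letters, the share inside was the lower one.

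The cores without mismatch are printed because they are the nearest to the consensus that the clusters hold. These 3 were in an optimal peak, and each has a 32-base word that occurs once.
Nearest to Vmn2r6, chr3:64587806-64587819, minus strand: tctctcccCCACTAGAGGGCGCagtggaag
Vmn2r76 exon, chr7:86211548-86211561, minus strand: ttttgaggCCACTAGGGGGCAGaagagtac
Nearest to Vmn2r113, chr17:22799911-22799924, plus strand: cagaagctCCAGCAGGTGGCGCaaactata

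Their signals were 29.84 (15.37 and 13.87 in replicates 1 and 2) at the core 21.98 kb from the 5′ end of Vmn2r6, 17.61 (6.981 and 9.442) in Vmn2r76 and 30.74 (19.04 and 11.48) at the core on chromosome 17, all below the list's median of 60.83. The last lies 143.1 kb from the 5′ end of Vmn2r113, in an intron of the gene record Gm16386. The strongest peaks inside the clusters (198.0, 143.9 and 143.3) lay on cores with mismatches.

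The other 8 perfect cores were in no optimal peak, and these examples stand for them.
Nearest to Vmn2r20, chr6:123424627-123424640, minus strand: catatacaCCAGTAGGTGGCAGacaggaga
Vmn2r46 intron, chr7:9756686-9756699, minus strand: tacttgtcCCAGTAGAGGGCAGaatttcaa
Nearest to Vmn2r43, chr7:8306430-8306443, minus strand: tacttgtcCCAGTAGAGGGCAGagtttcaa
Nearest to Vmn2r61, chr7:42450810-42450823, plus strand: tcctgtggCCACTAGAGGGCGGaggttgtc

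The core nearest to Vmn2r20 lies in an exon of the gene record Vmn2r-ps31, 6.518 kb from the 5′ end of Vmn2r20. It has a copy with the same 30 bases 6.573 kb from the 5′ end of Vmn2r21. The share of single words within 10 kb of both 5′ ends is 0%. The core in the intron of Vmn2r46 has a word found 4 times in the genome. The one 45.84 kb from the 5′ end of Vmn2r43, in an intron of the gene record Vmn2r-ps45, has a word found once. Neither had a relaxed peak. At the core 190.8 kb from the 5′ end of Vmn2r61 the word occurs once and a relaxed pooled peak of signal 8.561 lies within 50 bp of the core. So 2 of the 5 perfect cores with a single word were outside the optimal list, and 3 were in it.

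Of the 25 summits inside clusters, 20 had a core with at most 2 mismatches within 50 bp (80%, exact 95% interval 59.3 to 93.2%), and 73.4% of the 43355 summits elsewhere had one. The interval includes the share elsewhere. In replicate 2's own list the share was 65.4% of 26 summits, and in replicate 1's it was 76.0% of 25.

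The density of summits fell across the borders. Around the 13 clusters of 3 or more genes, the 50 kb just outside had 15 summits (11.54 per Mb) and the 50 kb just inside had 5 (3.846 per Mb). Farther out, between 100 and 150 kb, the density reached 24.62 per Mb, and at no distance up to 300 kb inside did it exceed 4.234 per Mb. Bins outside can reach into a neighbouring cluster. Over all 38 borders, 40 summits lay within 100 kb outside and 10 within 100 kb inside. Inside windows were cut at the opposite border, so in short clusters they cover less than 100 kb or overlap, and the lengths compared are unequal.

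**Figure D5:**
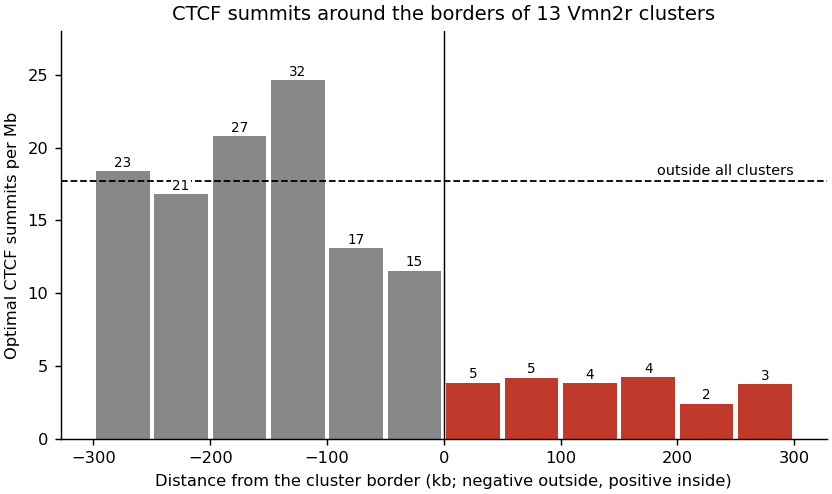
Optimal CTCF summits per Mb in bins of 50 kb by distance from the border (kb; negative outside, positive inside) of the 13 Vmn2r clusters with 3 or more genes, both borders added, with the number of summits above each bar and the density outside all clusters (17.69 per Mb) dashed. The outside bins lie between 11.54 and 24.62 per Mb, all above the inside bins.

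A summit within 100 kb outside was found at 18 of 38 borders, and within 50 kb at 11. The same share was not computed for other positions, so these counts do not show that summits gather at borders. The density outside all clusters was 17.69 per Mb. The median distance from the border to the next summit outside was 98.38 kb over the 36 borders that have one. Beyond Vmn2r-ps159 and Vmn2r87 the optimal list has no further summit. In the conservative list and in that of replicate 1 alone one lies 38.91 kb beyond Vmn2r87, and in that of replicate 2 one lies 38.8 kb beyond it. The nearest border summit lay 1.264 kb from the end of the Vmn2r8 record, followed by 8.094 kb at Vmn2r7, 9.446 kb at Vmn2r83 and 13.94 kb at Vmn2r84. The farthest lay 5263 kb to the left of Vmn2r53. Both borders had a summit within 100 kb in 4 clusters, neither in 5.

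The genes at the ends of clusters were nearer to summits than inner genes. In clusters of 3 or more, the 26 end genes had a median distance of 67.34 kb and 15 were within 100 kb (57.7%), while the 88 inner genes had a median of 269.5 kb and 15 were within 100 kb (17.05%). Examples of end genes are Vmn2r27 at 28.89 kb, Vmn2r29 at 31.18 kb, Vmn2r80 at 32.02 kb and Vmn2r76 at 34.77 kb, the last at 139.7 kb in the list of replicate 1 alone. End genes far from a summit were Vmn2r52 at 2613 kb and Vmn2r46 at 2471 kb (553.0 and 959.0 kb in the list of replicate 2 alone), Vmn2r37 at 1924 kb, Vmn2r110 at 457.1 kb, Vmn2r63 at 349.6 kb and Vmn2r77 at 315.8 kb. Vmn2r8 was the nearest of all end genes after Vmn2r7, at 18.27 kb. Between 30 and 90 kb lay Vmn2r84 (30.34 kb), Vmn2r90 (45.78 kb), Vmn2r57 (51.77 kb), Vmn2r56 (54.41 kb), Vmn2r117 (80.27 kb) and Vmn2r17 (87.25 kb). Past 100 kb lay Vmn2r111 (100.6 kb), Vmn2r79 (114.7 kb), Vmn2r65 (158.7 kb) and Vmn2r53 (180.6 kb). Vmn2r87 was 133.4 kb from a summit in the optimal list.

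The genes that stand alone or in a pair ranged from 39.01 to 368.0 kb. Vmn2r18 on chromosome 5 was 39.01 kb from a summit, Vmn2r118 on chromosome 17 was 77.45 kb away and Vmn2r-ps159 on chromosome 4 was 83.95 kb away. Vmn2r120 on chromosome 17 was 209.6 kb away, and Vmn2r28 on chromosome 7 was 368.0 kb away. On chromosome 14 the pair Vmn2r88 and Vmn2r89 lay 64.59 kb and 105.6 kb from the same summit. None of these 7 records contained a summit, but their clusters are short and would hold 0.1529 to 0.8666 summits each at the density of their chromosomes. End genes adjoin the sequence outside with its higher density of summits, and the part of that in this order was not tested.

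The summits at the borders were not among the strongest of the list as a group. The 36 borders had 32 distinct nearest summits, with a median signal of 54.5 (14.88 to 253.6), and 14 of the 32 were above the list's median of 60.83. A core with at most 2 mismatches was found at 29 of the 32. The strongest was right of Vmn2r28, at 253.6 (137.6 and 115.4 in replicates 1 and 2) but 633.3 kb away. Closer ones above the median included those right of Vmn2r27, at 143.3 (77.01 and 65.02) and 28.89 kb away, and left of Vmn2r80, at 154.3 (88.62 and 67.44) and 32.02 kb away. Others within 100 kb were left of Vmn2r1 (146.3), Vmn2r29 (80.46) and Vmn2r90 (187.6), and right of Vmn2r79 (121.7) and Vmn2r118 (120.9). Signals at close border summits also included low ones, such as 19.63 at Vmn2r7 and 21.53 (12.96 and 5.905) left of Vmn2r19, both absent from the conservative list. Without the latter, in the conservative list and in that of replicate 2 alone, Vmn2r19 was 415.7 kb from the nearest summit, in place of 46.59 kb.

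Over borders at any distance from their nearest summit, fewer cores faced into the cluster than out of it. CTCF sites that anchor a loop are known to face each other more often than not, so the strand was read at both sides. The core was on the plus strand, pointing inwards, at 5 of 18 left borders with a core, and on the minus strand, again inwards, at 3 of 15 right borders. Within 100 kb, cores faced inwards left of Vmn2r1, Vmn2r8, Vmn2r19 and Vmn2r84, and right of Vmn2r18, Vmn2r27 and Vmn2r83. Outward cores that near were left of Vmn2r-ps159, Vmn2r80, Vmn2r88 and Vmn2r90, and right of Vmn2r7, Vmn2r17, Vmn2r56, Vmn2r79 and Vmn2r118. The rest lay farther away, up to 5263 kb, and no expected share was computed. Among the 14 clusters with a core at both border summits, 1 had the pair facing inwards, Vmn2r19 to Vmn2r27, with 21.53 at the left summit, the one absent from the conservative list, and 143.3 (77.01 and 65.02) at the right one. Some border summits serve more than 1 cluster, so the number of independent borders is smaller. The one at chr7:12789413 lies 54.41 kb right of Vmn2r56, and also serves Vmn2r52 (2613 kb) and Vmn2r37 (3566 kb). The one at chr7:7299533 lies far from both borders it serves, at Vmn2r46 (2448 kb) and Vmn2r53 (5263 kb).

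The other listed genes of vomeronasal neurons comprised 4 signalling genes and 11 genes of MHC class I molecules. A summit lay within 10 kb of 3 of the 4 and of 1 of the 11: Gng8, the gamma subunit found in these neurons, at 0.413 kb (signal 234.0), Trpc2, the channel that carries the sensory current, at 4.427 kb (95.78), Gnai2, the alpha subunit of apical neurons, at 5.36 kb (16.22), and H2-M10.5 at 8.403 kb (21.19). Over all 15 listed genes that is 26.7%, with a median of 17.15 kb, and 52.2% of all protein-coding genes outside the Vmn2r family have a summit so near. Gnao1, the alpha subunit of the basal neurons that express V2R genes, was at 34.14 kb, and B2m, the light chain of MHC class I molecules, at 13.18 kb. The listed H2-M genes, nonclassical class I genes most of which are expressed together with V2R receptors, ranged from 8.403 kb for H2-M10.5 to 232.8 kb for H2-M2. They lie on chromosome 17, and 1 of the 10 had a summit within 10 kb.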

How the data were processed

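The deposited files are narrowPeak lists on mm10 from CTCF ChIP-seq of 2 heart libraries. Signal is the authors' deposited value per peak, and the summit is the peak start plus the deposited offset in bp. The authors called relaxed peaks per library and on pooled reads and derived the optimal and conservative (43221 peaks) lists by IDR, per the labels and the text deposited with the files. The aligner and peak caller, and how reads with several matches were treated: each was not given in the sources used here. Distances run from the 5′ end of the GENCODE M21 gene record to the nearest summit. A core is a match to the CTCF core consensus on either strand, in a peak when its centre lies within 50 bp of a summit. Words of 32 bases were sampled every 100 bp and counted on both strands of chromosomes 1 to 19, X and Y. Library signals were read from peaks within 100 bp and not scaled. Python 3.11.15, numpy 2.4.6, pandas 2.3.3, scipy 1.17.1 and numba 0.67.0 were used. The search, word counts, chaining and distances were tested on simulated sequence and positions. Members, lists and tests were chosen with earlier results of these data known. Genes named are those within 10 kb of a summit, the ends of clusters, the 5 farthest members, Vmn2r1 to Vmn2r7, Vmn2r26, Vmn2r83, Vmn2r116 and 15 pathway genes; other names were picked with values known. Alternatives were the conservative list, each library alone, other windows, chain gaps, mismatch limits, 5′ ends and uniqueness filters.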

Additional observations from a re-analysis of the deposited data

How the results depend on the processing

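The share of Vmn2r genes with a summit stayed below that of the other genes in each alternative tried. Within 10 kb the difference in percentage points was -51.4. It was -50.6 with the conservative list, -38.6 with a window of 5 kb, -64.95 with 20 kb, -60.55 with any transcript's 5′ end, -49.9 with genes within 10 kb counted once and -58.1 for genes with at least 80% single words. Without 1 replicate it was -51.7 to -51.4. Within 100 kb it was -62.35, with -69.3 for a window of 50 kb and -44.6 for 200 kb. For genes with at least 80% single words within 10 kb of the 5′ end it was -75.0. Without 1 replicate the difference within 100 kb was -63.4 to -60.7. Summits per Mb in clusters (1.995) came to 1.393 with a chain gap of 250 kb, 1.837 with 1 Mb, 1.915 with relaxed peaks above the lowest optimal decile (16.59 elsewhere) and 1.995 to 2.074 without 1 replicate. Borders with a summit within 100 kb numbered 18, with 11 for a window of 50 kb and 18 to 19 without 1 replicate. The share of core matches in a peak (3.50%) became 27.3% with 0 mismatches, 1.09% with 2, 11.25% for words that occur once, 2.88% with a chain gap of 250 kb, 3.245% with 1 Mb, 3.185% with the conservative list, 3.185 to 3.50% without 1 replicate and 7.43% without the most frequent letters, an alternative chosen after seeing the data. The share of cluster summits with a core (80%) became 44.0% with 1 mismatch, 96.0% with 3 and 65.4 to 76.0% without 1 replicate. With replicate 2 alone 21 members moved by over 1.5 times in distance, against 3 with replicate 1 alone and 3 with the conservative list. Of those 21, Vmn2r46 to Vmn2r52 moved because of 1 peak. No paired analysis was possible because the study has 1 group. Read depth is not known, and the 2 libraries share 1 tissue sample, so differences between animals were not measured.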
